A study of Mus musculus with 8 samples.

Results

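The genes described here encode 9 enzymes of bile acid synthesis in the liver, Cyp7a1, Cyp8b1, Cyp27a1, Cyp7b1, Hsd3b7, Akr1d1, Amacr, Baat and Slc27a5. They were chosen by gene symbol among the 55536 genes of the count table. All 9 were found, each as a single entry, and all 9 passed the filter on low counts. RNA sequencing was done on livers of lean wild-type C57BL/6 mice aged 2 months, each injected with 0.1 OD of an adenovirus and killed 1 week later after an overnight fast. In the Eif4ebp3 knockdown group (n = 4) the virus carried shEif4ebp3, directed at the translational repressor eIF4E-binding protein 3, and in the control group (n = 4) it carried shLacZ, directed at a bacterial gene absent from mice. Both groups therefore received virus and hairpin, and no uninjected liver was analysed here. The labels state neither the sex of the mice nor whether each sample came from 1 animal.

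Bile acids are made from cholesterol in hepatocytes along a classical and an alternative route. The classical route opens with Cyp7a1, the rate-limiting cholesterol 7-alpha-hydroxylase of the endoplasmic reticulum, and Cyp8b1, the sterol 12-alpha-hydroxylase, directs its product to cholic acid. The alternative route opens with Cyp27a1, a mitochondrial sterol side-chain hydroxylase, whose oxysterol products are hydroxylated by Cyp7b1. Both routes share the ring enzymes Hsd3b7 and Akr1d1, the racemase Amacr, and the enzymes that activate and conjugate bile acids, Slc27a5 and Baat.

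Among the 9 genes, Cyp8b1 has the plainest structure, a single exon of 1950 bases on chromosome 9 (121916305 to 121914356 in the direction of transcription, minus strand, mm10), and the others have 4 to 10 merged exons. RefSeq start-site windows on GRCm38.p6, the assembly also called mm10, were at hand for 4 of the 9 genes, Cyp8b1, Cyp27a1, Akr1d1 and Hsd3b7. The 250 bases before the start site are shown for Cyp8b1 (chr9:121916306-121916555, minus strand) and Cyp27a1 (chr1:74713285-74713534, plus strand), the gene of each route for which a window was at hand, because the transcripts of these genes fell by different amounts. Capitals mark the motifs found.
Cyp8b1: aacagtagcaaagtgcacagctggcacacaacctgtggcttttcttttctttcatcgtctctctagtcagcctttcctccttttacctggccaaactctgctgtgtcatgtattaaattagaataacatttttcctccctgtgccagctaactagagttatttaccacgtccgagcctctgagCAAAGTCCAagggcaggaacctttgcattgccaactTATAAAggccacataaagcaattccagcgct
Cyp27a1: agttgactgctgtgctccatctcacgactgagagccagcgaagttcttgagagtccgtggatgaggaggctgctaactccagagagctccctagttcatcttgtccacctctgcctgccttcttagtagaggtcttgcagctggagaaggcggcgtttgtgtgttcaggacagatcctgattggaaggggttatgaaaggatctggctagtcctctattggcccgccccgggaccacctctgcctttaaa
Both strands were searched for CAAAGTCCA (the HNF4A motif), AAGGTCA (the half-site of NR5A2), AGGTCA (the nuclear receptor half-site, which lies within the NR5A2 one), GTAAACA (FOXO), TATAAA (the TATA box) and TTATGTAA (the D-box). The Cyp8b1 window held CAAAGTCCA, whose first base is at -67, and TATAAA at -31. Among 32851 RefSeq windows of the same length, 0.384% held the HNF4A motif and 12.4% the TATA box. The Akr1d1 window held AGGTCA on the opposite strand at -232 and at -210, and 14.0% of all windows held that half-site. None of the other motifs searched was found in these 4 windows, and no motif at all in those of Cyp27a1 and Hsd3b7. AAGGTCA was in 4.08%, GTAAACA in 3.17% and TTATGTAA in 0.819% of all windows.

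Total estimated counts ranged from 25330306 to 32389444 in the knockdown samples and from 24371461 to 27079278 in the controls. Eif4ebp3 itself held 9.62, 13.9, 37.2 and 19.5 normalised CPM (counts scaled to library totals with TMM factors) in knockdown replicates 1 to 4, against 289, 215, 204 and 49.3 CPM in control replicates 1 to 4. The groups did not overlap, but control replicate 4 lay nearest to the knockdown samples, and the log2 fold change was -3.24 ± 0.53 (SE; adjusted p = 0.000379, edgeR). Exons of Eif4ebp3 share bases with those of AC115631.1 on the same strand. Genes of other liver cells moved in the same samples. The 16 hepatocyte markers summed to 71060 to 91990 CPM in the knockdown samples and 90100 to 117100 CPM in the controls, and 13 of them fell in edgeR's quasi-likelihood test (adjusted p under 0.05), whereas albumin (Alb) did not pass, at 42079 ± 4187 CPM in the knockdown samples and 40829 ± 4891 CPM in the controls (SD, n = 4 each; adjusted p = 0.83, edgeR), nor did Trf or Hpx. Under total-count scaling 10 hepatocyte markers fell and 3 rose, with Alb at a log2 fold change of 0.61 (adjusted p = 0.00046, edgeR), and 1 marker was higher in DESeq2, limma-voom and the fit with a replicate block. Of the markers tested, 18 of 19 for macrophages, 15 of 17 for T and NK cells, 12 of 15 for stellate cells and 7 of 10 for cholangiocytes rose, while the T cell marker Cd4 fell. Over all genes tested 27.8% fell and 29.5% rose, and 7.73% and 63.9% did so under total-count scaling. Of 12 endothelial markers 3 fell, near the share over all genes, and Cdh5 rose. These 12 summed to 326 to 606 CPM in the knockdown samples and 536 to 594 CPM in the controls. Without knockdown replicate 1, 7 of them fell, the Cdh5 call was lost without knockdown replicate 1 or 2 or control replicate 1 or 3, and under total-count scaling none fell and 4 rose. Macrophage markers summed to 1297 to 1551 CPM in the knockdown samples and 557 to 707 CPM in the controls, T and NK cell markers to 73.6 to 100.4 against 22.9 to 43.4 CPM, and stellate cell markers to 624 to 1064 against 246 to 297 CPM. The cholangiocyte list summed to 104 to 140.1 CPM in the knockdown samples and 66.3 to 84.5 CPM in the controls, and no marker of these lists was at 0 in all samples. In whole liver, fewer hepatocytes and less RNA per hepatocyte cannot be told apart, and the part of these markers in the results below was not tested.

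All 9 enzyme genes were lower in the Eif4ebp3 knockdown livers, with adjusted p under 0.05 in edgeR's quasi-likelihood test, and none was higher. DESeq2 and limma-voom also called all 9 lower. Of all 15375 genes tested 57.2% passed in either direction, 27.8% lower and 29.5% higher. The median log2 fold change of the 9 was -1.45, against -1.04 for the 16 hepatocyte markers and -0.0032 for all genes tested. Amacr, Hsd3b7 and Akr1d1 fell less than that hepatocyte median. The log2 fold change was -1 or less for 6 of the 9, which 7.04% of all genes tested reached together with the adjusted p. For 8 members each knockdown sample lay below each control sample, as it did for 24.7% of all genes tested, and Akr1d1 was the exception. The 9 genes fell into a group with a large decrease, Cyp7b1, Cyp8b1 and Cyp7a1, a group in between, Slc27a5, Cyp27a1 and Baat, and a group with a small decrease, Amacr, Hsd3b7 and Akr1d1. This division was made after the values were seen.

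**Figure D1:**
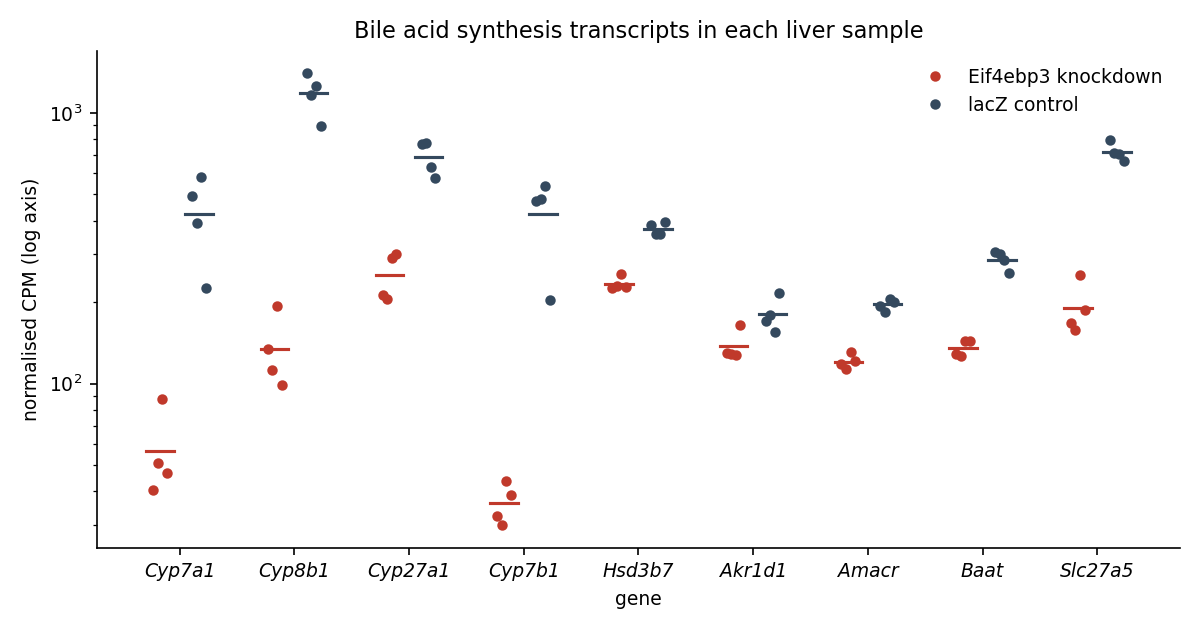
Normalised CPM on a log axis for each of the 9 genes, with a point per sample and a line at the group mean (n = 4 each). The groups overlap for Akr1d1, where control replicate 3 (156 CPM) lay below knockdown replicate 4 (164 CPM), and for no other gene shown.

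How far the calls rest on the library scaling was asked next, since the median gene shifted by 0.563 on the log2 scale between TMM factors and total-count scaling. Under total-count scaling 6 of the 9 fell, Cyp7b1, Cyp8b1, Cyp7a1, Slc27a5, Cyp27a1 and Baat, against 7.73% of all genes tested, and 63.9% of all genes were higher. The members' median was then -0.88, and that of the hepatocyte markers -0.47. Amacr (-0.14, adjusted p = 0.133, edgeR) and Hsd3b7 (-0.11, adjusted p = 0.245, edgeR) no longer passed, and Akr1d1 turned to 0.17 (adjusted p = 0.291, edgeR). Before any scaling, the estimated counts of Akr1d1 were 4130, 4411, 3726 and 6413 counts in the knockdown samples and 3542, 3840, 3024 and 4730 in the controls, whereas those of Cyp8b1 were 4256, 3877, 5608 and 3860 counts in the knockdown samples and 29142, 25000, 24474 and 19608 in the controls. The calls of Amacr, Hsd3b7 and Akr1d1 therefore hold relative to the median gene.

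**Figure D2:**
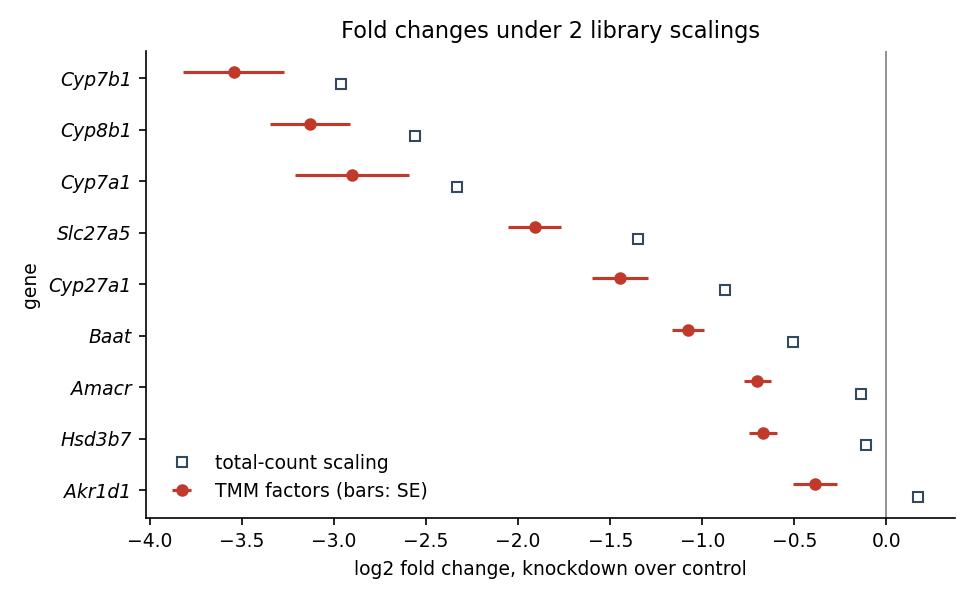
Log2 fold change of knockdown over control for each gene under TMM factors (filled circles, bars are the SE) and under total-count scaling (open squares). Every square lies to the right of its circle, and Akr1d1 is at -0.39 under TMM factors and at 0.17 under total-count scaling.

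Both enzymes of the classical route fell. Cyp7a1 (ENSMUSG00000028240, chromosome 4, 6265612 to 6275633, minus strand, mm10) held 40.5, 51, 87.8 and 46.6 CPM in the knockdown samples and 494, 391.5, 578 and 226 CPM in the controls. The groups did not overlap, with replicate 3 the highest of the knockdown samples and replicate 4 the lowest of the controls. The knockdown mean was 56.5 ± 21.3 CPM, or 13.4% of the control mean of 422 ± 152 CPM (SD, n = 4 each). Its log2 fold change was -2.90 ± 0.31 (SE), with an adjusted p of 2.03e-05 from edgeR's quasi-likelihood test.

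Cyp8b1 had the highest level per length of the 9 in the controls. It held 134, 113, 193 and 98.9 CPM in the knockdown samples and 1399, 1168, 1258 and 895 CPM in the controls. No knockdown sample came near the controls, and replicate 3 was again the highest of the knockdown group. The log2 fold change was -3.13 ± 0.22 (SE; adjusted p = 1.27e-06, edgeR), and the knockdown mean was 11.4% of the control mean. Of all genes tested 78 had a lower log2 fold change than Cyp8b1 and 97 a lower one than Cyp7a1.

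The first and second steps of the alternative route fell unequally. Cyp27a1 (ENSMUSG00000026170, chromosome 1, 74713574 to 74737892, plus strand) held 213, 205, 290 and 302 CPM in the knockdown samples and 768, 775, 633 and 574 CPM in the controls. The groups were separate, and the knockdown mean was 36.7% of the control mean. Its log2 fold change was -1.45 ± 0.15 (SE; adjusted p = 1.89e-05, edgeR). Cyp7b1 (ENSMUSG00000039519, chromosome 3, 18071950 to 18243338, minus strand), the oxysterol 7-alpha-hydroxylase, held 32.5, 30, 43.8 and 38.7 CPM in the knockdown samples and 474, 479, 537 and 204 CPM in the controls. It showed the lowest log2 fold change of the 9, -3.55 ± 0.28 (SE; adjusted p = 2.45e-06, edgeR), and 59 of all genes tested had a lower one. Knockdown samples were closely grouped (36.2 ± 6.24 CPM, SD, n = 4), while control replicate 4 held less than any other control. Without that control the log2 fold change was -3.78 for Cyp7b1 and -3.12 for Cyp7a1.

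The ring-modifying enzymes shared by both routes had small log2 fold changes, that of Hsd3b7 within its SE of that of Amacr. Hsd3b7 (ENSMUSG00000042289, chromosome 7, 127800604 to 127803802, plus strand), which oxidises the hydroxylated sterol ring, held 226, 228, 254 and 228 CPM in the knockdown samples and 385, 357, 356 and 394 CPM in the controls. All knockdown samples lay below the controls, with a log2 fold change of -0.67 ± 0.08 (SE; adjusted p = 3.1e-05, edgeR). Its exons share bases with the protein-coding gene Gm49388 on the same strand and with 9430064I24Rik on the other, so its counts are uncertain where reads could belong to either. Gm49388 held 33.5 ± 8.19 CPM in the knockdown samples and 58.4 ± 17.3 CPM in the controls, and 9430064I24Rik held 9.19 ± 1.73 CPM in the knockdown samples and 11.1 ± 3.58 CPM in the controls (SD, n = 4 each). Akr1d1 (ENSMUSG00000038641, chromosome 6, 37530173 to 37568815, plus strand), which reduces the ring and gives bile acids their bent shape, held 130.2, 128, 128 and 164 CPM in the knockdown samples and 170, 179, 156 and 216 CPM in the controls. Its log2 fold change of -0.39 ± 0.12 (SE; adjusted p = 0.0157, edgeR) was the smallest in size, and replicate 4 was the highest in both groups. With upper-quartile factors it was -0.31 and did not pass (adjusted p = 0.0512, edgeR).

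Amacr (ENSMUSG00000022244, chromosome 15, 10981756 to 10996626, plus strand) converts the side-chain intermediates to the stereoisomer that peroxisomes oxidise. It held 118, 113, 131 and 121 CPM in the knockdown samples and 193, 184, 205 and 201 CPM in the controls. The groups stood apart with little spread in either, and the log2 fold change was -0.70 ± 0.07 (SE; adjusted p = 1.87e-05, edgeR). Slc27a5 (ENSMUSG00000030382, chromosome 7, 12988346 to 12998192, minus strand), the ligase that joins bile acids to coenzyme A, held 167, 158, 251 and 187 CPM in the knockdown samples and 791, 710, 704 and 663 CPM in the controls. Replicate 3 was once more the highest knockdown sample, and the log2 fold change was -1.91 ± 0.14 (SE; adjusted p = 1.93e-06, edgeR). Baat (ENSMUSG00000039653, chromosome 4, 49489422 to 49506557, minus strand), which joins the activated bile acid to taurine or glycine, held 129, 127, 144 and 144 CPM in the knockdown samples and 306, 301, 285 and 255 CPM in the controls. The knockdown samples held 47.4% of the control mean, and the log2 fold change was -1.08 ± 0.09 (SE; adjusted p = 2.76e-06, edgeR). Within this last pair the activating ligase thus had a lower log2 fold change than the conjugating enzyme.

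The authors' deposited table lists a lower level in knockdown for all 9 genes. Its log2 fold changes are -3.43 for Cyp7b1, -3.06 for Cyp8b1, -2.69 for Cyp7a1, -1.89 for Slc27a5, -1.43 for Cyp27a1 and -1.07 for Baat, and it marks these 6 as significant. For Amacr, Hsd3b7 and Akr1d1 the authors' deposited table lists -0.70, -0.67 and -0.38 without that mark, although their listed adjusted p was at most 0.00673.

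Levels of different genes were compared as normalised CPM per kilobase of the gene length that the authors list. In the knockdown samples Cyp27a1 (133 ± 26.7) and Hsd3b7 (128 ± 7.36) were the highest of the 9 and did not differ beyond their spread. That rests on the length of Hsd3b7, listed by the authors as 1828 bases and spanning 2769 bases as the union of its annotated exons. With union exon lengths for all 9, a choice made after the data were seen, Hsd3b7 held 84.6 ± 4.86 CPM per kilobase in the knockdown samples and lay below every Cyp27a1 value (94.5 to 139). Slc27a5 (83.4 ± 18.3), Baat (70 ± 4.8), Cyp8b1 (69 ± 21.2), Akr1d1 (51 ± 6.6) and Amacr (46.8 ± 2.93) followed, each overlapping its neighbour in this order. Cyp7b1 (16.7 ± 2.88) and Cyp7a1 (13.5 ± 5.11) came last, below all other members, and overlapped each other (all CPM per kilobase, SD, n = 4). In the controls the order began with Cyp8b1 (605 ± 109), ahead of Cyp27a1 (363 ± 52.8), Slc27a5 (313 ± 23.4), Hsd3b7 (204 ± 10.6), Cyp7b1 (195 ± 68.7) and Baat (148 ± 11.7). Cyp7a1 (101 ± 36.3), Amacr (76 ± 3.58) and Akr1d1 (66.8 ± 9.54) came last in the controls. Neighbours in the control order overlapped, except Cyp8b1 with Cyp27a1 and Slc27a5 with Hsd3b7. Cyp8b1 thus had rank 5 in the knockdown samples and rank 1 in the controls, and Hsd3b7 had rank 2 in the knockdown samples and rank 4 in the controls. With union exon lengths the ranks of Cyp8b1 were the same, and Hsd3b7 had rank 2 in the knockdown samples and rank 6 in the controls.

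Expressed as a share of the summed CPM per kilobase of all 9 genes, Cyp8b1 made up 11.2 ± 2.45% in the knockdown samples and 29 ± 1.83% in the controls (SD, n = 4 each). The share of Cyp7b1 was 2.72 ± 0.142% in the knockdown samples and 9.23 ± 2.6% in the controls, and that of Cyp7a1 was 2.17 ± 0.565% in the knockdown samples and 4.79 ± 1.36% in the controls. The shares of Cyp27a1, Hsd3b7, Akr1d1, Amacr and Baat were larger on average in knockdown than in control, as parts of a sum that was itself smaller (543 to 714 against 1706 to 2312 CPM per kilobase). Hsd3b7 made up 21.1 ± 1.69% in the knockdown samples and 10 ± 1.76% in the controls (15.7% in the knockdown samples and 7.1% in the controls with union exon lengths), and Akr1d1 8.41 ± 1.28% in the knockdown samples and 3.31 ± 0.945% in the controls. The groups overlapped for Slc27a5, with a share of 13.5 ± 1.23% in the knockdown samples and 15.2 ± 1.21% in the controls.

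**Figure D3:**
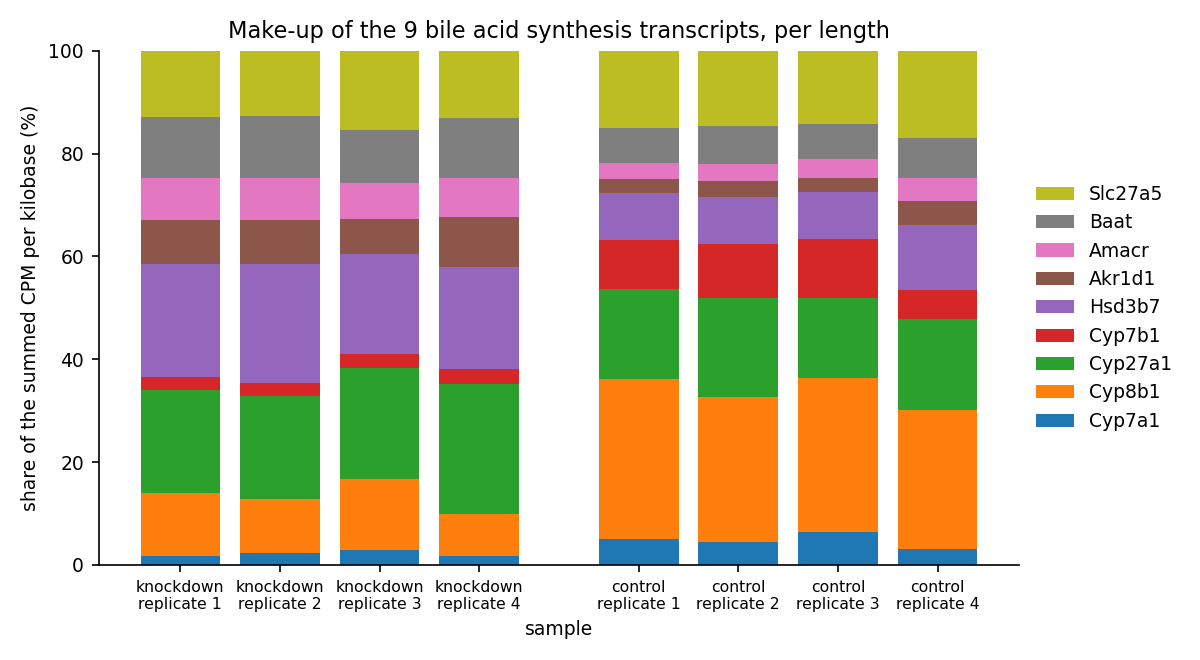
Share of each gene in the summed normalised CPM per kilobase of the 9 genes, stacked to 100% for each sample. Cyp8b1 takes 8.08 to 13.8% in the knockdown samples and 26.9 to 31% in the controls, while Hsd3b7 takes 19.5 to 23% in the knockdown samples and 9.05 to 12.6% in the controls.

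The classical and alternative routes were contrasted by the ratio of hydroxylase transcripts within each sample, which does not depend on library scaling. All 6 pairs of Cyp7a1, Cyp8b1, Cyp27a1 and Cyp7b1 were tested with a two-sided exact permutation test on log2 ratios, where 4 against 4 samples cannot give a p below 0.0286, and p was adjusted over the 6 pairs. The opening enzymes of the routes, Cyp7a1 over Cyp27a1, stood at 0.0865, 0.113, 0.137 and 0.07 per length in the knockdown samples and at 0.291, 0.229, 0.414 and 0.179 in the controls. The groups did not overlap, and the mean log2 ratio was lower in knockdown by the difference -1.43 (exact permutation p = 0.0286, adjusted 0.0429). Cyp8b1 over Cyp27a1 was below 1 in each knockdown sample (0.612, 0.532, 0.644 and 0.318) and above 1 in each control (1.77, 1.46, 1.93 and 1.51), with a difference of -1.70 on the log2 scale (exact permutation p = 0.0286, adjusted 0.0429).

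Neither ratio to Cyp7b1 was lower in knockdown. Cyp7a1 over Cyp7b1 was 0.648, 0.883, 1.04 and 0.625 in the knockdown samples and 0.541, 0.425, 0.559 and 0.575 in the controls, a log2 difference of 0.58 without overlap (exact permutation p = 0.0286, adjusted 0.0429). For Cyp8b1 over Cyp7b1 the groups overlapped, with mean log2 ratios of 2.01 ± 0.35 in knockdown and 1.70 ± 0.41 in control (SD, n = 4 each; exact permutation p = 0.314, adjusted 0.343). Within the classical route, Cyp8b1 over Cyp7a1 also overlapped, with mean log2 ratios of 2.37 ± 0.30 in knockdown and 2.64 ± 0.35 in control (exact permutation p = 0.343, adjusted 0.343). Within the alternative route, Cyp27a1 over Cyp7b1 showed the widest separation of the 6 pairs, at 7.49, 7.84, 7.58 and 8.92 in the knockdown samples and 1.86, 1.85, 1.35 and 3.22 in the controls. Its log2 difference was 2.01 (exact permutation p = 0.0286, adjusted 0.0429). Cyp7a1 and Cyp8b1 of the classical route and Cyp7b1 of the alternative route each decreased relative to Cyp27a1. With differences of medians in place of means none of the 4 pairs passed (adjusted exact permutation p = 0.0857 each). Between 4 and 4 samples no difference of medians can pass this test, so that setting gives values only. The summed pair Cyp7a1 and Cyp8b1 over the summed pair Cyp27a1 and Cyp7b1 was 0.616, 0.572, 0.69 and 0.349 in the knockdown samples and 1.34, 1.1, 1.35 and 1.29 in the controls, per length and as a description. Cyp8b1 was the larger part of the first sum and Cyp27a1 of the other in every sample, so this ratio mostly follows those genes.

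**Figure D4:**
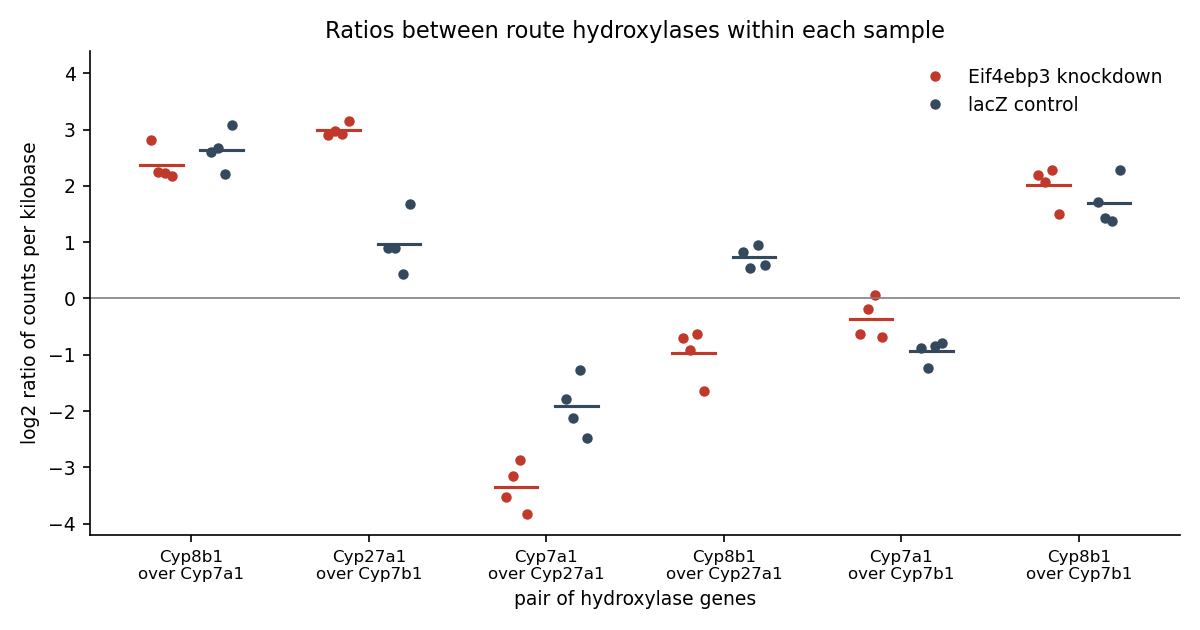
Log2 ratio of counts per kilobase for the 6 pairs of hydroxylase genes, with a point per sample and a line at the group mean (n = 4 each). The groups are separate for 4 pairs and overlap for Cyp8b1 over Cyp7a1 and Cyp8b1 over Cyp7b1.

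Samples within a group differed in step for several members. In the knockdown group replicate 3, which held the most Eif4ebp3 (37.2 CPM), was also the highest for Cyp7a1, Cyp8b1, Cyp7b1, Slc27a5, Hsd3b7 and Amacr. In the control group replicate 4, which held the least Eif4ebp3 (49.3 CPM), was the lowest for Cyp7a1, Cyp8b1, Cyp27a1, Cyp7b1, Slc27a5 and Baat but the highest for Hsd3b7 and Akr1d1. It was also the only control coded D. Knockdown replicate 4 held the next most Eif4ebp3 (19.5 CPM) but the least Cyp8b1 (98.9 CPM) of its group. Among hepatocyte markers, Alb, Tat, Apoa1 and Hnf4a were likewise highest in knockdown replicate 3 and lowest in control replicate 4. Apob was instead lowest in knockdown replicate 3, and Ttr highest in control replicate 4. Whether the enzymes follow Eif4ebp3 was not tested. Between samples of a group Cyp7a1 varied most in the knockdown samples (coefficient of variation 37.7%) and in the controls (35.9%), while Amacr varied by 6.27% in the knockdown samples and 4.71% in the controls, and Hsd3b7 by 5.75% in the knockdown samples and 5.19% in the controls.

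Of 20 further genes of bile acid synthesis, all tested, 12 fell and Ch25h rose, and the median log2 fold change was -0.42. Over all genes tested 27.8% fell and 29.5% rose. Slc27a2, a peroxisomal and microsomal acyl-CoA synthetase that activates bile acid precursors, held 763 ± 120.5 CPM in the knockdown samples and 2828 ± 234 CPM in the controls (SD, n = 4 each), a log2 fold change of -1.89 ± 0.13. Abcd3, a peroxisomal membrane transporter, and Scp2, a peroxisomal thiolase and sterol carrier, each had a log2 fold change of -1.27, and the aldo-keto reductase gene Akr1c6 one of -0.98 (adjusted p of these genes at most 1.87e-05, edgeR). Cyp2c70, which forms the muricholic acids of mice, held 342 CPM in the knockdown samples and 446 CPM in the controls on average, with overlapping groups and a log2 fold change of -0.38 (adjusted p = 0.0424, edgeR), which turned to 0.18 under total-count scaling. The oxysterol hydroxylase gene Cyp39a1, at 43.7 CPM in knockdown and 52.7 CPM in control, did not pass (adjusted p = 0.282, edgeR). The call of Ch25h, a low transcript that makes another oxysterol (1.04 CPM in knockdown, 0.405 CPM in control), was lost without knockdown replicate 1 or 2 or without any 1 of the controls. Under total-count scaling 7 of the 20 fell and 3 rose, with a median of 0.14, against 7.73% lower and 63.9% higher over all genes tested.

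Among 29 genes described as regulators of these enzymes, 28 were tested, of which 17 fell and 4 rose, with a median log2 fold change of -0.64 (7 and 8 under total-count scaling, median -0.06). The shares over all genes tested were 27.8% lower and 29.5% higher, and 7.73% lower and 63.9% higher under total-count scaling. Nr1h4, the bile acid receptor FXR, held 59.1, 55, 65 and 61.4 CPM in the knockdown samples and 136, 136, 149 and 97.2 CPM in the controls, a log2 fold change of -1.11 ± 0.12 (SE; adjusted p = 2.42e-05, edgeR). Nr0b2, the small heterodimer partner SHP, a repressor of Cyp7a1 and Cyp8b1 that FXR induces, moved the other way, at 38.4, 30.7, 40.1 and 25 CPM in the knockdown samples and 7.2, 19.9, 17.5 and 18.4 CPM in the controls. The groups did not overlap, and its log2 fold change was 1.09 ± 0.27 (SE; adjusted p = 0.00477, edgeR). Klb, the co-receptor through which the gut hormone FGF15 lowers Cyp7a1, held 16.4 ± 1.97 CPM in the knockdown samples and 38.9 ± 6.09 CPM in the controls (SD, n = 4 each), and its partner Fgfr4 held 27 CPM in the knockdown samples and 43.4 CPM in the controls. Both fell, with log2 fold changes of -1.25 for Klb and -0.68 for Fgfr4, and the Fgfr4 call was lost under total-count scaling (-0.12). Ppara, Nr1i3 and Prox1, a corepressor of Cyp7a1, had log2 fold changes of -1.10, -1.58 and -1.12 (adjusted p at most 5.73e-06, edgeR).

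Of the regulators, the known activators Hnf4a, Nr5a2 and Nr1h3 of the classical route were also examined. Hnf4a held 565, 593, 713 and 602 CPM in the knockdown samples and 1197, 1425, 1092 and 788 CPM in the controls, so the groups stood apart, with a log2 fold change of -0.86 ± 0.16. Nr5a2 held 45, 41.7, 44 and 46.9 CPM in the knockdown samples and 61, 54.6, 70.7 and 52.6 CPM in the controls, with a log2 fold change of -0.43 ± 0.10 (SE; adjusted p = 0.00315, edgeR). Neither call held under total-count scaling, where the log2 fold changes were -0.29 for Hnf4a and 0.15 for Nr5a2. Under that scaling 7 regulators were still lower and 8 higher, with Ppargc1a and Cebpa among those lower. Ppargc1a had a log2 fold change of -1.64 with TMM factors and -1.06 under total-count scaling (adjusted p = 0.0102, edgeR). Cebpa had -1.15 with TMM factors and -0.60 under total-count scaling (adjusted p = 0.00313, edgeR). The liver X receptor gene Nr1h3, whose product induces Cyp7a1 in mice, held 85.3 CPM in the knockdown samples and 93.2 CPM in the controls and did not pass (adjusted p = 0.351, edgeR), but was higher under total-count scaling (log2 fold change 0.44, adjusted p = 0.00249, edgeR).

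**Figure D5:**
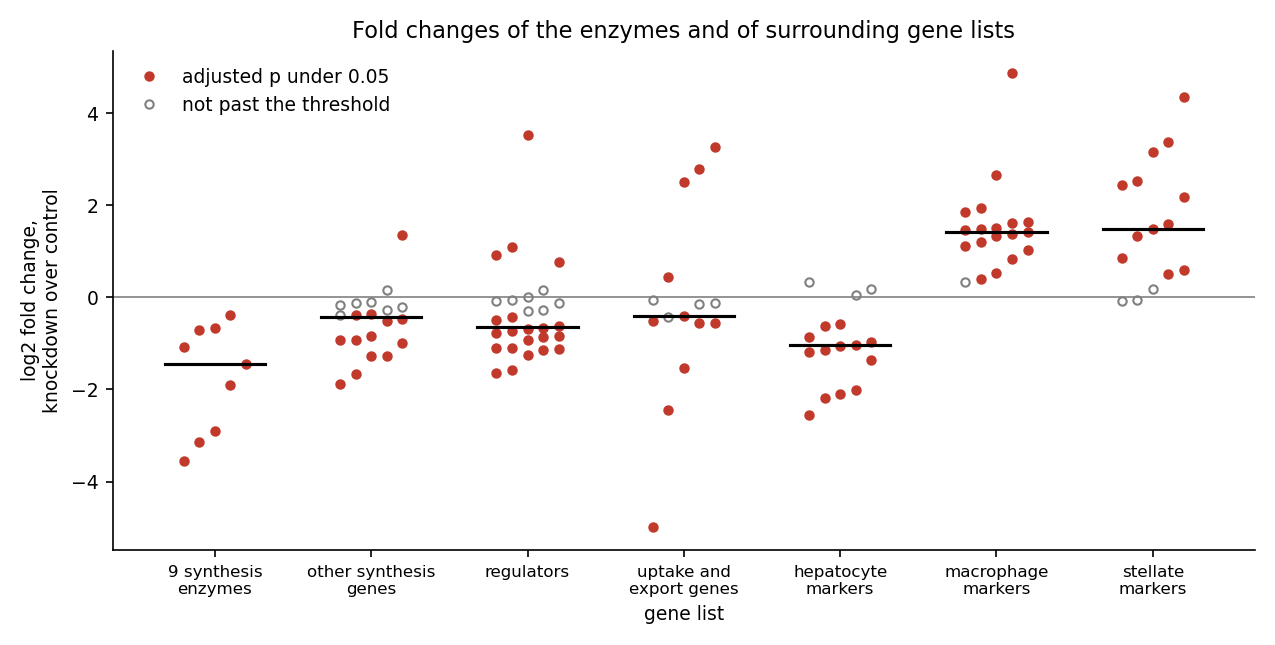
Log2 fold change of knockdown over control for each gene tested in 7 lists, with filled points for an adjusted p under 0.05 in edgeR and a line at the list median. The 9 enzymes lie between -3.55 and -0.39, with a median of -1.45. The hepatocyte markers have a median of -1.04, and the macrophage and stellate cell markers medians of 1.41 and 1.49.

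Of 14 tested genes described as FXR targets 5 were higher and 5 lower, near the shares over all genes tested (29.5% higher and 27.8% lower). These counts take no account of whether FXR raises or lowers a given target. Their median was -0.18. Under total-count scaling 9 were higher and 3 lower, where 63.9% of all genes tested were higher and 7.73% lower. Besides Nr0b2, Pltp rose, with a log2 fold change of 1.03 ± 0.10, as did Ces1g (1.21), Apoc2 (1.10) and Slc51b (2.78). Slc51b was a low transcript, at 4.33 CPM in the knockdown samples and 0.621 CPM in the controls. Slc10a1, Fetub, Kng1, Abcb4 and Kng2 had log2 fold changes of -2.44, -1.74, -1.17, -0.41 and -0.21. A list for bile salt uptake and export, which shares Slc10a1, Slc51a, Slc51b, Abcb4 and Abcb11 with the FXR targets, had 4 higher and 7 lower of 15 tested (7 and 3 under total-count scaling). Besides bile salt carriers it holds the fatty acid-binding protein gene Fabp1, the sterol transporter genes Abcg5 and Abcg8 and the flippase gene Atp8b1, and Fabp1 and Abcg8 are among the 7 lower. The hepatocyte uptake carriers Slco1a1 and Slco1b2 had log2 fold changes of -4.99 and -1.52, and the efflux pump gene Abcb1a one of 3.27. The canalicular bile salt export pump gene Abcb11 held 359 CPM in the knockdown samples and 399 CPM in the controls and did not pass (adjusted p = 0.339, edgeR), but was higher under total-count scaling (0.40). Of 11 tested genes of bile acid sulfation, glucuronidation and related steps, 7 fell and Sult2a2, with 1 to 3 counts per control sample, rose (5 and 2 under total-count scaling). Sult2a8, a bile acid sulfotransferase of mouse liver, held 25.7 ± 8.5 CPM in the knockdown samples and 647 ± 60.5 CPM in the controls (SD, n = 4 each), and Papss2, Ugt2b1 and Acot12 had log2 fold changes of -1.15, -2.69 and -1.24. Sult2a and Ugt2b copies resemble one another, so values of single copies are uncertain.

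Genes with the profile most like each hydroxylase were sought among 12318 genes, as the smallest root mean square difference of centred log2 CPM over the 8 samples. These were the tested genes with a mean of at least 1 CPM and an established symbol, so Gm, Rik and clone names were left out. For Cyp7a1 these were Egfr (0.2), Tat (0.238) and C8b (0.244 log2 units). For Cyp8b1 they were Ces3a (0.173), C8b (0.213) and Mug1 (0.229), and for Cyp7b1 Ugt2b38 (0.192), Gjc3 (0.23) and Mug1 (0.235). Cyp27a1 had closer neighbours, Ceacam1 (0.0994), F9 (0.0996) and Nr1i3 (0.1). Their log2 fold changes lay between -3.68 for Ugt2b38 and -1.44 for F9, a direction that the choice by likeness to these hydroxylases fixes.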

How the data were processed

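Liver RNA of 8 samples was sequenced after depletion of ribosomal RNA, per the labels' protocols. The submitters' processing notes name mm10 and the tools SAMtools 1.9, GATK 3.8, Bowtie2 2.2.9 and fastp 0.19.5. Which program counted reads, with which annotation and strand setting, no source used here gives. The authors deposited estimated counts for each gene, without normalisation, of which 9.99 to 12.1% per sample were not whole, and these were rounded. The 645 assembled loci without a gene identifier (0.676 to 1.08% of counts) were left out. The authors' deposited table of their own comparison holds a fold change (ratio) and its log2 per gene, a p-value and an adjusted p-value, whose settings are not stated, and the gene lengths. Columns were assigned by the code in each sample's label.

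Tests used R 4.3.3 and edgeR 4.0.16 (filterByExpr, TMM, glmQLFit, glmQLFTest, Benjamini-Hochberg over 15375 genes, threshold 0.05), SE being the log2 fold change over the root of F. CPM used totals times TMM factors. Ratios used counts plus 0.5, per kilobase, with exact permutation tests in scipy 1.17.1. The procedures were tested on simulated data. Levels per kilobase used the authors' gene lengths. Alternatives were union exon lengths (added after the data were seen), DESeq2 1.42.0, voom in limma 3.58.1, other scalings and filters, a replicate block, the code letter (C or D, meaning not given) as covariate, and leaving out samples. Replicates differed beyond sampling noise (chi-square over its degrees of freedom at least 9.9), so none was a repeat deposit. The labels say only that samples are separate, so a p-value reflects the variation among them, which may be technical. Coordinates are GENCODE M21 (mm10); the lowest count of an enzyme gene in a sample was 1030.

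The enzymes, gene lists, start-site windows and motifs were chosen with earlier results of these data known. The rule named all 9 enzymes, up to 4 changed genes per list with the smallest p, 3 most similar genes per hydroxylase and Eif4ebp3; of some lists fewer are printed. Other genes named, such as Nr0b2, Nr1h4, Fgfr4, Hnf4a, Nr5a2, Nr1h3, Ppargc1a, Cebpa, Cyp2c70, Cyp39a1, Ch25h, Abcb11, Sult2a2, Fabp1, Abcg8, Trf, Hpx, Apoa1, Ttr and albumin, were chosen after their values were seen.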

Additional observations from a re-analysis of the deposited data

Results flagged for a closer look

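In 30 groups of 4 values (9 genes and 6 ratios in both groups of samples), 3 extreme values stood apart by Dixon's criterion, where chance gives about 5% of groups. Among the knockdown samples, Hsd3b7 was highest in replicate 3, at 254.3 CPM, while the other 3 lay between 226 and 228 CPM. Akr1d1 was highest in knockdown replicate 4, at 164.4 CPM, with the others between 128 and 130.2 CPM. The log2 ratio of Cyp8b1 over Cyp7a1 was highest in knockdown replicate 1, at 2.823, with the others between 2.18 and 2.24.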

How the results depend on the processing

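Of 171 values (19 alternatives for each of the 9 log2 fold changes), 167 kept their direction and side of the threshold. The exceptions were Akr1d1, -0.31 with upper-quartile factors and 0.172 under total-count scaling, where its direction turned, and Hsd3b7 and Amacr, which lost their calls under total-count scaling. That scaling moved the median of all genes by 0.563 and gave 9823 higher and 1189 lower genes, against 4528 higher and 4272 lower with TMM factors. Leaving out each sample in turn gave 9 lower members each time, with log2 fold changes of -3.20 to -2.72 for Cyp7a1, -3.36 to -3.01 for Cyp8b1, -1.54 to -1.36 for Cyp27a1 and -3.78 to -3.42 for Cyp7b1. With differences of medians in place of means, the ratio differences were 2.06 for Cyp27a1 over Cyp7b1, -1.39 for Cyp7a1 over Cyp27a1, -1.52 for Cyp8b1 over Cyp27a1 and 0.46 for Cyp7a1 over Cyp7b1, each with an adjusted exact permutation p of 0.0857 and no longer past the threshold. That outcome was fixed by the design, because no difference of medians between 4 and 4 samples can pass this test. Exchanging the highest value of the lower group with the lowest of the higher group leaves both medians unchanged. With 3 samples in a group no ratio can pass (smallest p 0.0571), so those settings give values only. The replicate numbers did not pair the samples (correlations of deviations -0.175, -0.0328, 0.0594 and 0.174 for the same numbers), and not every sample correlated best with its own number. A fit with the replicate block gave 4414 higher and 4067 lower genes and 9 lower members. Of 418 list counts under alternatives 47 moved by over 1.5 times, 13 of them under total-count scaling. The samples coded C alone gave 9 lower members, while code D marks a single sample per group and allows no fit.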
